A study of Mus musculus with 6 samples.

Results

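Endothelial cells line the vessels of the liver, and the 35 genes described here mark these cells or carry their signals. They were chosen by name as 12 genes of the sinusoidal endothelium, 19 genes shared by endothelial cells in general and 4 genes for secreted signals to hepatocytes. The choice was made with earlier results of these data known. All 35 were among the 46983 gene rows of the count table, matched by their symbols in GENCODE vM21, and all 35 passed the filter on low counts. The study compared whole livers of chow-fed, untreated 12-week-old mice on a C57BL/6 background. The knockout group (AEG-1DHEP) lacked AEG-1 in hepatocytes and held 3 libraries. The control group (AEG-1fl/fl, called WT in the titles) held 3 library columns, of which the columns of replicates 1 and 2 were identical in all 46983 rows, so they differed by less than sampling noise and count as 1 sample, control replicate 1. That left 2 distinct control libraries, control replicates 1 and 3. The promoter that drives the hepatocyte-specific recombination is not stated in the sources used here, and the labels describe no deletion in endothelial cells of either group.

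The sinusoids of the liver are lined by a thin endothelium with open pores and no continuous basement membrane. Its cells clear waste molecules from the blood through scavenger receptors and lectins, a capacity that the endothelium of most other organs lacks. The same cells take up growth signals made by hepatocytes, above all vascular endothelial growth factor (VEGF), and send back bone morphogenetic proteins (BMP), Wnt proteins and R-spondin, which set iron handling and metabolic zones in hepatocytes. Signals that endothelial cells send to their tissue are called angiocrine.

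Levels are given in CPM, read counts scaled to library size with the TMM factors of edgeR. Library totals were 29557477 to 33685670 counts for the knockout livers, against 30819997 and 30965664 for the control livers. A count of 3 is 0.0891 to 0.101 CPM at these totals, a limit that covers counting error only. Mtdh, the gene for AEG-1, had 89, 74 and 76 counts in the knockout libraries, against 1529 and 1612 in the control libraries, a log2 fold change of -4.36 (SE 0.15, edgeR adjusted p = 0.000564), so each library went with its label. The tissue label went with its markers too, as 9 measured hepatocyte markers summed to 85491, 88937 and 97072 CPM in knockout livers, against 110860 and 79534 CPM in the 2 control livers. The 35 endothelial genes took 0.0721%, 0.0579% and 0.0485% of all counts in the knockout libraries, against 0.0681% and 0.0750% in the control libraries. The lowest count of any of them in any library was 26. By their labels the libraries are biological replicates.

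None of the 35 endothelial genes passed the test over all genes. The edgeR quasi-likelihood test called 1 of 16441 genes, Mtdh, which is 0.00608% of those tested, and the adjusted p of every endothelial gene was 1.00. DESeq2 called 0 of the 35 as well, beside 0.116% of all genes. The levels nevertheless leaned one way: 29 of the 35 (82.9%) were lower in the knockout group, as were 47.9% of all genes tested. This lean was not particular to endothelial genes. Of the markers that passed the filter, 85.7% were lower for Kupffer cells and macrophages, 83.3% for stellate cells and 66.7% for hepatocytes. The median log2 fold change of the 35 genes was -0.26, beside 0.01 over all genes tested. At an unadjusted p under 0.05 there were 3 lower and 0 higher endothelial genes, beside 1.80% lower and 1.63% higher of all genes. Every knockout library lay below both control libraries for 11 of the 35 (31.4%), beside 8.73% of all genes tested, and the opposite held for 0 of the 35, beside 8.15% of all genes. The count of 3 lower genes became 14 without knockout replicate 1, beside 1.51% of all genes, and 1 without knockout replicate 3, beside 1.79%. It became 5 without control replicate 1, beside 1.62% of all genes, and 0 without control replicate 3, beside 2.84%. Leaving out a library makes the condition behind the count of 11 easier to meet, for these genes and for all genes. That count became 23 without knockout replicate 1, beside 14.0% of all genes. It was 12 without knockout replicate 2, beside 16.5%, and 12 without knockout replicate 3, beside 15.3%. Without control replicate 1 it was 24, beside 22.8% of all genes, and without control replicate 3 it was 14, beside 25.6%. These genes share the same 5 libraries, so their counts are not independent of one another. Since none of the 35 genes was called, a fall in endothelial RNA was not established. Had there been one, fewer endothelial cells and less RNA per endothelial cell could not be told apart in RNA of whole liver.

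**Figure D1:**
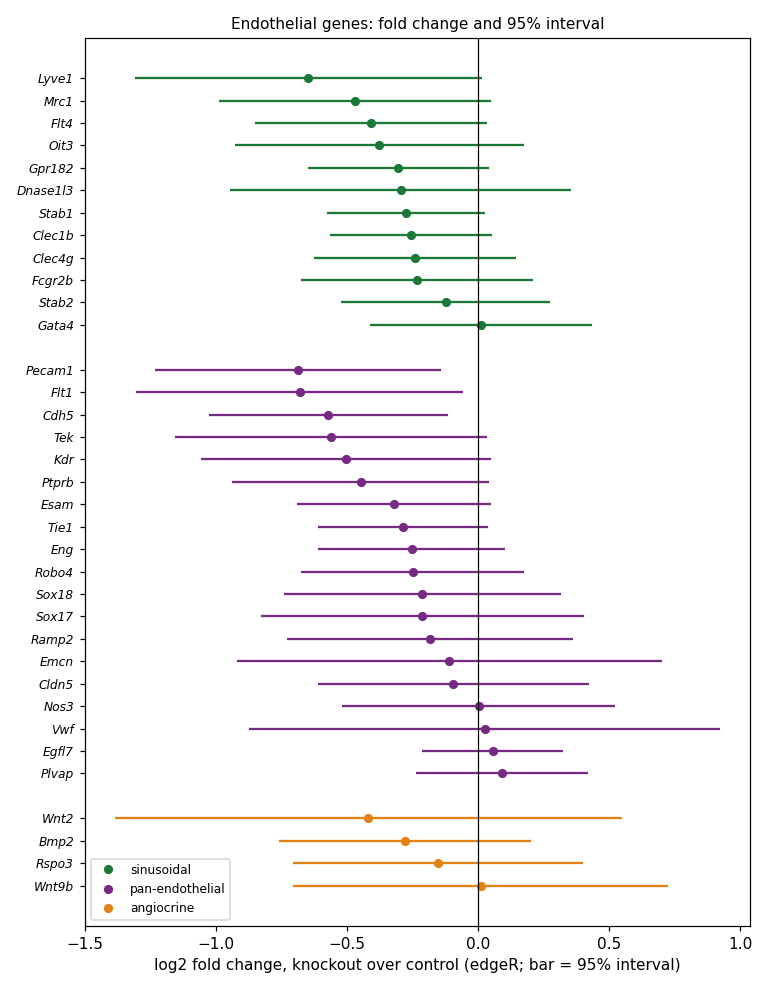
Log2 fold change of each endothelial gene, knockout over control, on the horizontal axis, with genes grouped as sinusoidal, pan-endothelial and angiocrine from top to bottom; points are edgeR estimates and bars their 95% intervals. The intervals of 3 genes, Pecam1, Flt1 and Cdh5, lie wholly below 0, and all points lie between -0.69 and 0.09.

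The receptors for VEGF were lower in level in the knockout group without passing the test. Flt1, the receptor that acts largely as a trap for VEGF, was at 8.82, 5.85 and 5.03 CPM in knockout replicates 1, 2 and 3, against 9.26 and 11.8 CPM in control replicates 1 and 3. All 3 knockout libraries lay below the control libraries, and the log2 fold change was -0.68 (SE 0.26, edgeR unadjusted p = 0.0367). Kdr, the main signalling receptor for VEGF on vessels, was at 40.9, 25.4 and 25.6 CPM in the 3 knockout livers, against 39.4 and 47.5 CPM in the 2 control livers. Knockout replicate 1 lay among the controls here, and the other knockout libraries lay below both. The log2 fold change of Kdr was -0.51, with a 95% interval of -1.06 to 0.05. Flt4, the receptor for VEGF-C and VEGF-D, which the sinusoidal and lymphatic endothelium carry, was at 20.2, 13.8 and 15.0 CPM in the 3 knockout livers, against 20.0 and 23.3 CPM in the 2 control livers. It showed the same overlap through knockout replicate 1, with a log2 fold change of -0.41 (SE 0.18).

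The ligands of these receptors and of related pathways showed no common direction. Among 15 VEGF, angiopoietin, angiopoietin-like, apelin and Notch ligands, 13 passed the filter, 8 were lower and 5 higher in knockout livers, and 0 were called, with a median log2 fold change of -0.03. The log2 fold change of Vegfa, which hepatocytes make, was 0.10 (SE 0.20), and that of Vegfc was -0.42 (SE 0.32). Dll4, a Notch ligand of the arterial and portal side, was at 4.16, 4.31 and 3.56 CPM in the 3 knockout livers, against 5.99 and 4.71 CPM in the 2 control livers, which did not overlap. It was the 1 gene of the 13 (7.69%) with every knockout library below both controls, beside 8.73% of all genes tested.

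The angiopoietin receptor system resembled the VEGF receptors in its values. Tek, the receptor for angiopoietins that keeps vessels quiescent, was at 8.72, 6.88 and 5.40 CPM in the 3 knockout livers, against 8.50 and 12.2 CPM in the 2 control livers. Its relative Tie1 was at 12.9, 10.7 and 10.8 CPM in the 3 knockout livers, against 13.7 and 14.3 CPM in the 2 control livers. The groups did not overlap for Tie1, while for Tek knockout replicate 1 lay just above control replicate 1. Ptprb, a phosphatase that acts on Tek and VE-cadherin, was at 56.6, 45.6 and 36.4 CPM in the 3 knockout livers, against 55.5 and 70.6 CPM in the 2 control livers, and overlapped in the same way. The log2 fold changes were -0.56 for Tek, -0.29 for Tie1 and -0.45 for Ptprb, with edgeR unadjusted p-values of 0.0605, 0.0754 and 0.0677. The estimate of Tek was -0.28 without control replicate 3.

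Among the adhesion and junction genes, Pecam1 and Cdh5 had the smallest p-values of the 35 genes. Pecam1 (CD31; ENSMUSG00000020717, chromosome 11, 106654217 to 106750628 on GRCm38), the adhesion molecule between neighbouring endothelial cells, was at 12.7, 10.4 and 7.96 CPM in the 3 knockout livers, against 14.0 and 19.3 CPM in the 2 control livers. Cdh5 (VE-cadherin; ENSMUSG00000031871, chromosome 8, 104101625 to 104144502), which builds their adherens junctions, was at 17.4, 14.4 and 12.6 CPM in the 3 knockout livers, against 18.7 and 25.3 CPM in the 2 control livers. Both genes had every knockout library below every control library, and in both the control libraries also differed from each other, with control replicate 3 above control replicate 1 by 0.46 and 0.44 on the log2 scale. Pecam1 averaged 10.3 ± 2.35 CPM in knockout livers (SD, n = 3) and 16.6 ± 3.71 CPM in control livers (SD, n = 2), with a log2 fold change of -0.69 (SE 0.23, edgeR unadjusted p = 0.0210). Cdh5 averaged 14.8 ± 2.47 CPM in knockout livers and 22.0 ± 4.66 CPM in control livers, with a log2 fold change of -0.57 (SE 0.19, edgeR unadjusted p = 0.0212). Without control replicate 3 these estimates were -0.44 for Pecam1 and -0.33 for Cdh5.

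Among the other genes of the endothelial surface, some had non-overlapping groups and some overlapped. Esam, a junctional adhesion molecule, was at 9.04, 7.39 and 7.34 CPM in the 3 knockout livers, against 10.3 and 9.55 CPM in the 2 control livers. Eng, the co-receptor for BMP9 and TGF-beta, was at 52.3, 49.3 and 39.1 CPM in the 3 knockout livers, against 53.6 and 58.2 CPM in the 2 control livers. Robo4, a guidance receptor that stabilises vessels, was at 10.8, 10.4 and 7.71 CPM in the 3 knockout livers, against 11.9 and 11.0 CPM in the 2 control livers. These 3 genes did not overlap between the groups, although the gap between knockout replicate 1 and the nearer control was small, and their log2 fold changes were -0.32, -0.25 and -0.25. Cldn5, the claudin of tight junctions, and Ramp2, the partner of the adrenomedullin receptor, overlapped, with -0.09 (SE 0.22) and -0.18 (SE 0.23).

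Vwf, Plvap, Egfl7, Nos3 and Emcn were close to equal in the estimates. Vwf, the clotting factor carrier of venous and arterial endothelium, was at 5.34, 5.52 and 2.90 CPM in the 3 knockout livers, against 3.11 and 5.92 CPM in the 2 control livers. Within each group its libraries differed almost as widely as across all of them, so the log2 fold change of 0.02 came with a 95% interval of -0.87 to 0.92. Plvap, which forms the diaphragms of fenestrated vessels, was at 25.6, 26.3 and 21.0 CPM in the 3 knockout livers, against 21.6 and 24.0 CPM in the 2 control livers, with a log2 fold change of 0.09 with an interval of -0.24 to 0.42. The intervals of Egfl7, a matrix protein secreted by endothelium, ran from -0.21 to 0.32, of Nos3, the endothelial nitric oxide synthase, from -0.52 to 0.52, and of Emcn, a surface sialomucin, from -0.92 to 0.70. The estimates of these 5 genes ran from -0.11 to 0.09, and whether they differ from the rest of the 19 pan-endothelial genes was not tested.

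The transcription factors were expressed at low levels or equal in the estimates. Sox17 and Sox18, factors of arterial and lymphatic differentiation, averaged 2.01 and 2.56 CPM in knockout livers, against 2.33 and 2.97 CPM in control livers, and overlapped between the groups. Gata4, the master regulator of sinusoidal identity, was at 13.6, 19.6 and 15.7 CPM in the 3 knockout livers, against 15.0 and 17.4 CPM in the 2 control livers. The knockout libraries held both the highest and the lowest value of Gata4, which stellate cells also express, and its log2 fold change was 0.01 (95% interval -0.41 to 0.44).

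**Figure D2:**
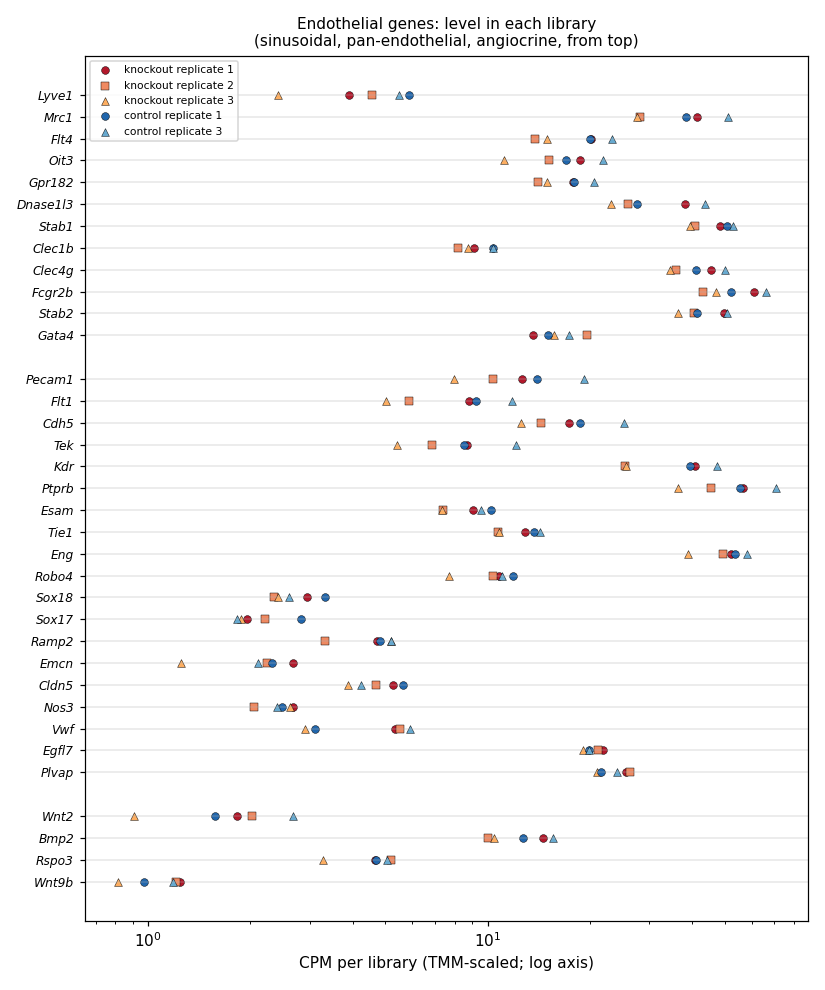
Level of every endothelial gene in each distinct library, in CPM on a log axis, with sinusoidal genes at the top, pan-endothelial genes in the middle and angiocrine genes at the bottom, each ordered by fold change; warm colours are knockout libraries and blue colours control libraries. Knockout replicate 3 is the lowest point of 23 genes and control replicate 3 the highest point of 21.

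Of the 12 sinusoidal genes, 11 were lower in level in the knockout group (91.7%, beside 47.9% of all genes). Every knockout library lay below both controls for 4 of them (33.3%, beside 8.73% of all genes), and 0 were called. The scavenger receptor Stab1 was at 48.4, 40.9 and 39.4 CPM in the 3 knockout livers, against 51.0 and 52.9 CPM in the 2 control livers. Its relative Stab2, the main receptor for hyaluronan clearance and a gene that is nearly restricted to sinusoidal cells in the liver, was at 49.8, 40.5 and 36.5 CPM in the 3 knockout livers, against 41.5 and 50.7 CPM in the 2 control livers. The groups did not overlap for Stab1 and overlapped widely for Stab2, with log2 fold changes of -0.28 (SE 0.13) and -0.12 (SE 0.17). Lyve1, a second hyaluronan receptor, was at 3.90, 4.55 and 2.40 CPM in the 3 knockout livers, against 5.87 and 5.48 CPM in the 2 control livers. It had the largest estimate of the sinusoidal genes, -0.65 (SE 0.28, edgeR unadjusted p = 0.0540), and all knockout libraries lay below the controls. Mrc1, the mannose receptor, was at 41.4, 28.0 and 27.6 CPM in the 3 knockout livers, against 38.6 and 51.1 CPM in the 2 control livers. Knockout replicate 1 lay between the controls for Mrc1, and the log2 fold change was -0.47 (SE 0.22).

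Lectins and further sinusoidal genes behaved alike in size. Clec4g, the C-type lectin LSECtin, was at 45.4, 35.9 and 34.5 CPM in the 3 knockout livers, against 41.0 and 50.2 CPM in the 2 control livers. Clec1b, the lectin CLEC-2, was at 9.14, 8.17 and 8.78 CPM in the 3 knockout livers, against 10.4 and 10.4 CPM in the 2 control livers. Gpr182, an atypical chemokine receptor, was at 17.9, 14.1 and 15.0 CPM in the 3 knockout livers, against 18.0 and 20.6 CPM in the 2 control livers. Clec1b and Gpr182 did not overlap between the groups, with log2 fold changes of -0.26 (SE 0.13) and -0.30 (SE 0.14), while Clec4g overlapped, with -0.24 (SE 0.16). Fcgr2b, the inhibitory Fc receptor that removes immune complexes, Oit3, a secreted protein of these cells, and Dnase1l3, a nuclease for circulating chromatin, overlapped as well, with -0.23, -0.38 and -0.30. For Dnase1l3 the control libraries stood at 27.6 and 43.8 CPM, a gap of 0.67 on the log2 scale that exceeded the difference between the groups.

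Sinusoidal and pan-endothelial genes differed little from each other. The median log2 fold change was -0.29 for the sinusoidal and -0.25 for the pan-endothelial genes, a difference of -0.04 that turned positive without knockout replicate 2 (0.05) and without control replicate 3 (0.09) and was -0.13 without control replicate 1. The sinusoidal genes summed to 368, 290 and 276 CPM in the 3 knockout livers, against 338 and 414 CPM in the 2 control livers. Their ratio to the pan-endothelial sum was 1.21, 1.13 and 1.27 in the knockout libraries and 1.13 and 1.19 in the control libraries. The summed knockout level was 82.8% of control for the sinusoidal and 79.9% for the pan-endothelial genes, and knockout replicate 1 lay above control replicate 1 in both sums. Per kilobase of exon, Clec4g was the most abundant of the 35 genes, at 15.7 CPM per kilobase in knockout and 18.5 in control livers, followed by Plvap and Eng in knockout livers and by Eng and Plvap in control livers. The lowest were Vwf and Wnt9b, with 0.285 and 0.240 CPM per kilobase in knockout livers and 0.281 and 0.239 in control livers. Neighbours in that order, such as Eng with 11.6 and Plvap with 12.1 in knockout livers, were not separated beyond the spread of the libraries.

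Promoter sequences are shown for 2 pairs of related genes of which 1 had non-overlapping groups and the other overlapping ones, Flt1 and Kdr among the VEGF receptors and Stab1 and Stab2 among the scavenger receptors. Whether the changes of a pair differ was not tested; apart from Stab2 they were picked after their values were seen. RefSeq promoters on GRCm38.p6 were found for 18 of the 35 genes, and none was found for Pecam1, Cdh5, Lyve1 or Bmp2. Each line holds the 250 bases before the RefSeq gene start, and capitals mark AGGAAG or CCGGAA on either strand, letters bound by ETS factors, which regulate endothelial genes.
Flt1 (chr5:147726012-147726261, minus strand): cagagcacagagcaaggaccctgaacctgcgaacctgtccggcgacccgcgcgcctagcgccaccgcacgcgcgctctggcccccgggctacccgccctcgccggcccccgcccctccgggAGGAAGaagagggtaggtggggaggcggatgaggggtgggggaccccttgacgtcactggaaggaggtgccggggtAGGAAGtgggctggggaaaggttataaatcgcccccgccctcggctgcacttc
Kdr (chr5:75978456-75978705, minus strand): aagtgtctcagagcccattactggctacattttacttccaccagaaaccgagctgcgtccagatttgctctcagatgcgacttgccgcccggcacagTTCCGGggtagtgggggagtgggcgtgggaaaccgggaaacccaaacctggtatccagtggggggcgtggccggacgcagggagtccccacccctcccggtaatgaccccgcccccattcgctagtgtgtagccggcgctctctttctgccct
Stab1 (chr14:31168642-31168891, minus strand): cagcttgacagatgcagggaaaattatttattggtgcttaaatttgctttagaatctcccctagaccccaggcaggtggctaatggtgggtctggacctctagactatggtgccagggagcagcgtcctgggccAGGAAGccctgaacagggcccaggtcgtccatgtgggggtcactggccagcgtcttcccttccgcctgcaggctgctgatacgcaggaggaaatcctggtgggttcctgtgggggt
Stab2 (chr10:87007943-87008192, minus strand): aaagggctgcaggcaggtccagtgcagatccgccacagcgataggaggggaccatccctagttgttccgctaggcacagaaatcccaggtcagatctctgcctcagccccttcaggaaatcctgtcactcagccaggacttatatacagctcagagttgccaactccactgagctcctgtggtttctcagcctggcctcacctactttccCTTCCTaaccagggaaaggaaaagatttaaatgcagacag
AGGAAG was present in 10 of the 18 windows and in 29.5% of all 32851 promoters, and CCGGAA in 1 of the 18, Kdr, and in 12.0% of all promoters. Both hold the core GGAA of the ETS motif, which on its own was in 93.4% of all promoters. The letters AGATAA, which are a motif of the GATA factors, were in 0 of the 18 windows and in 9.99% of all promoters. A match is a description of letters and not a bound site.

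All 4 angiocrine genes overlapped between the groups, and Wnt2, Wnt9b and Rspo3 were at low levels. Bmp2, a BMP that acts on hepatocytes to induce hepcidin, was at 14.5, 10.0 and 10.4 CPM in the 3 knockout livers, against 12.7 and 15.6 CPM in the 2 control livers, with a log2 fold change of -0.28 (SE 0.20, edgeR unadjusted p = 0.209). Wnt2, a ligand of the central side of the sinusoid, was at 1.82, 2.02 and 0.906 CPM in the 3 knockout livers, against 1.57 and 2.67 CPM in the 2 control livers. Its 95% interval ran from -1.39 to 0.55 around -0.42, so a change of either sign was compatible with these libraries. Wnt9b, the Wnt of central vein endothelium, and Rspo3, which raises the response to Wnt and is also made by stellate cells, had 0.01 (SE 0.30, edgeR unadjusted p = 0.976) and -0.15 (SE 0.23, edgeR unadjusted p = 0.534).

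Other angiocrine and BMP ligands gave 5 lower and 5 higher genes of 10 that passed the filter, out of 12 listed, and 0 were called (median -0.13). Bmp6, the partner of Bmp2 in hepcidin control, was at 4.91, 3.59 and 3.37 CPM in the 3 knockout livers, against 5.90 and 5.59 CPM in the 2 control livers. The groups did not overlap for Bmp6, with a log2 fold change of -0.54 (SE 0.21, edgeR unadjusted p = 0.0411). It was the 1 gene of the 10 (10%) with every knockout library below both controls, beside 8.73% of all genes tested. Hgf, the hepatocyte growth factor, had -0.43 (SE 0.29). Of 9 hepatocyte targets of BMP signals, 5 were lower and 4 higher, and 0 were called (median -0.06). Hamp, the gene for hepcidin, was at 811, 659 and 1089 CPM in the 3 knockout livers, against 1115 and 723 CPM in the 2 control livers, so the groups overlapped. Smad6, an inhibitor induced by BMP signals, was at 4.46, 5.37 and 5.28 CPM in the 3 knockout livers, against 7.44 and 6.40 CPM in the 2 control livers. Its log2 fold change was -0.46 (SE 0.17, edgeR unadjusted p = 0.0321), and endothelial cells express Smad6 too.

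Targets of Wnt signals in hepatocytes around the central vein showed no call. Of 15 such genes, 10 were higher (66.7%, beside 52.1% of all genes) and 5 lower in knockout livers, 0 were called and the median log2 fold change was 0.12. Every knockout library lay above both controls for 3 of the 15, beside 8.15% of all genes tested, and below both for 0. The summed knockout level of these 15 genes was 126% of control. A sum follows its most abundant genes, so this is not a rise common to the 15. Glul, the glutamine synthetase, was at 838, 885 and 810 CPM in the 3 knockout livers, against 507 and 710 CPM in the 2 control livers. Its log2 fold change was 0.47 (SE 0.18, edgeR unadjusted p = 0.0385). Lect2, a secreted hepatocyte protein, had a log2 fold change of 0.46 (SE 0.17, edgeR unadjusted p = 0.0299). Axin2, a general Wnt target, had 0.05 (SE 0.27) and overlapped. For endothelial genes of the central side, 5 of 7 were lower (median -0.15), and for those of the portal side, 6 of 6 (median -0.38). Both lists had 0 calls, and the central list holds Wnt2, Wnt9b and Rspo3. Thbd and Kit of the central list are also in the list of other endothelial genes below, and Dll4 of the portal list is among the ligands above. Thbd, thrombomodulin, led the central list with -0.77 (SE 0.26), and Ntn4, a netrin, led the portal list with -0.85 (SE 0.30), and both had non-overlapping groups. Every knockout library lay below both controls for 14.3% of the central and 50% of the portal list, beside 8.73% of all genes tested.

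A list of 36 other endothelial genes was described in the same way. It too was chosen with earlier results of these data known and comes from the same 5 libraries, so it is no independent repeat. Of its 35 genes that passed the filter, 30 were lower (85.7%), 5 were higher, 0 were called and the median was -0.26. The groups did not overlap for 12 of them, all with the knockout libraries below, which is 34.3%, beside 8.73% of all genes tested. Sox7, a relative of Sox17, was at 1.56, 1.21 and 1.94 CPM in the 3 knockout livers, against 3.14 and 2.40 CPM in the 2 control livers, with a log2 fold change of -0.82 (SE 0.27, edgeR unadjusted p = 0.0212). The summed knockout level was 98.9% of control for this list and 81.5% for the 35 genes. Cd36, chosen after its values were seen and also made by hepatocytes, stood at 92.8, 82.4 and 19.3 CPM in the 3 knockout livers, against 30.1 and 49.8 CPM in the 2 control livers, and Nrp1 and Hhex, likewise abundant members of that list, overlapped.

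Within each group, most but not all of the 35 endothelial genes were highest in the same library. Libraries also differed within the groups over all genes with at least 5 counts in a pair. The chi-square per degree of freedom, larger for less similar libraries, was 207 for the 2 control libraries. It was 40.8 to 96.5 among the knockout libraries and 45.1 for knockout replicate 3 with control replicate 3. The other pairs of a knockout and a control library ran from 77.0 to 142. Knockout replicate 3 held the lowest value for 23 of the 35 genes, beside 22.4% of all genes tested, and control replicate 3 the highest for 21, beside 18.3%. Knockout replicate 1 was the highest of the knockout libraries for 27 genes, and control replicate 3 exceeded control replicate 1 for 27. For 14 genes the gap between the 2 control libraries was larger than the difference between the groups. The counts of 27, 27 and 14 have no share of all genes beside them, so they do not set these genes apart. The hepatocyte sums given above were lowest in knockout replicate 1 and control replicate 3 within their groups, the libraries with the highest endothelial sums. Most of that sum was Alb, the gene for albumin, at 60676, 59548 and 70331 CPM in the 3 knockout livers, against 80450 and 53695 CPM in the 2 control livers, and other hepatocyte markers such as Hnf4a and Cyp2c29 did not follow its order; these genes were chosen after their values were seen. The part of the hepatocyte values in the endothelial result was not tested.

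**Figure D3:**
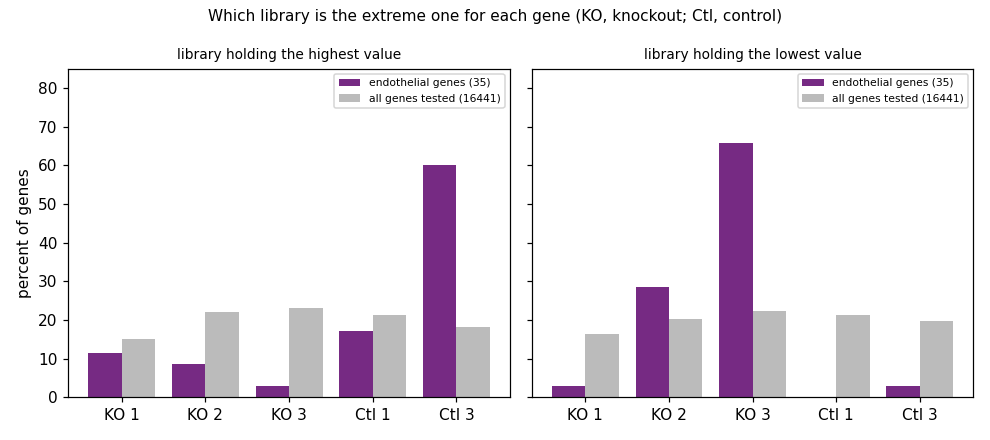
Percent of the 35 endothelial genes (purple) and of the 16441 genes tested (grey) that have their highest value (left) or lowest value (right) in each distinct library. Control replicate 3 holds the highest value of 21 endothelial genes, and knockout replicate 3 the lowest of 23.

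Markers of other cells that share genes or a place with the endothelium were also read. Of 8 smooth muscle and pericyte markers, 6 passed the filter, all 6 were lower with the knockout libraries below both controls, beside 8.73% of all genes, and 0 were called (median -0.80). Their summed level was 34.9 to 41.3 CPM in the 3 knockout livers, against 65.9 and 59.2 CPM in the 2 control livers, and Cnn1 was at 0 counts in knockout replicate 1. Myh11, the smooth muscle myosin, was at 3.16, 3.71 and 2.84 CPM in the 3 knockout livers, against 7.62 and 5.82 CPM in the 2 control livers, with a log2 fold change of -1.05 (SE 0.20, edgeR unadjusted p = 0.00159). Myl9, a myosin light chain, had -0.99 (SE 0.20). Among the 14 markers of Kupffer cells and macrophages, 12 were lower (85.7%, beside 47.9% of all genes), with a median of -0.16. Their sums overlapped, with 543 to 602 CPM in knockout livers, against 553 and 691 CPM in the 2 control livers. Mrc1, Stab1, Lyve1 and Fcgr2b can also come from macrophages, whose marker Adgre1 had -0.68 (SE 0.29) and whose Kupffer cell marker Clec4f, named after its value was seen, had -0.01 (SE 0.15). Of 12 stellate cell markers, 10 were lower (83.3%, beside 47.9% of all genes), with a median of -0.11. Their sums were 285 to 392 CPM in knockout livers, against 346 and 361 CPM in the 2 control livers. Platelets hold Vwf and Clec1b, and 8 platelet markers summed to 5.93 to 7.12 CPM in knockout livers, against 7.78 and 5.52 CPM in the 2 control livers, with Gp9, Gp6, Gp1bb and Treml1 at 0 to 2 counts in every library. The part of these cells in the endothelial result was not tested.

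**Figure D4:**
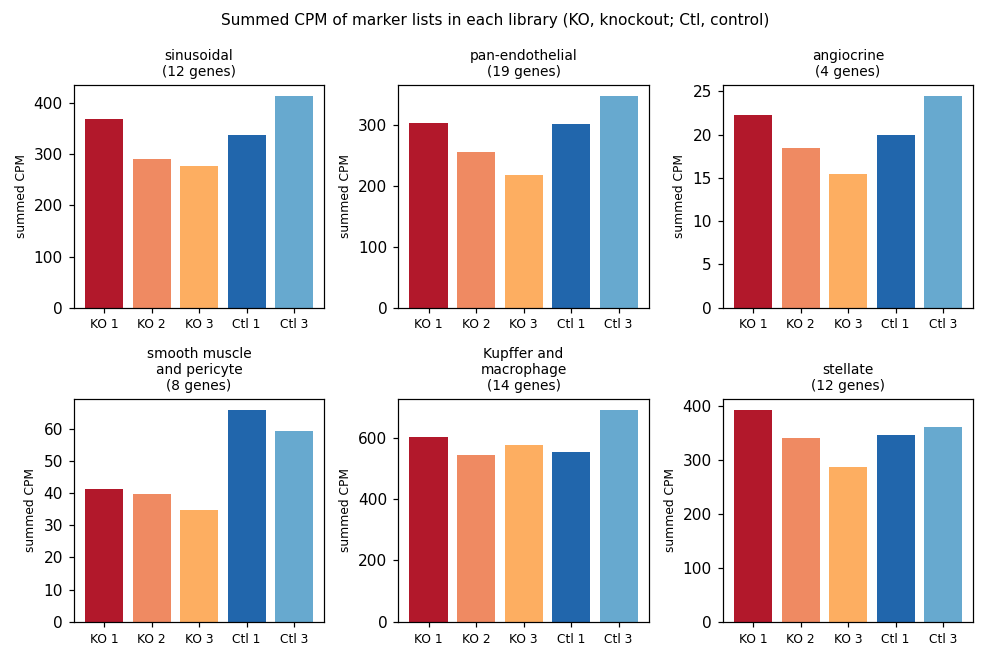
Summed CPM of the sinusoidal, pan-endothelial and angiocrine genes (top row) and of the smooth muscle and pericyte, Kupffer and macrophage, and stellate markers (bottom row), 1 bar per distinct library, with knockout libraries left of control libraries and each axis starting at 0. The groups are separate for the smooth muscle and pericyte sum, at 34.9 to 41.3 against 65.9 and 59.2 CPM, and overlap in the other 5.

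The intervals show which sizes of change these libraries allow. The median half-width of the 95% interval was 0.52 on the log2 scale over the 35 genes, and 28 of the intervals lay within 1 of 0. The remaining 7 allowed a log2 fold change of -1 or below, among them Pecam1, Flt1, Kdr and Lyve1. Counts of 12 of the genes could include reads of an overlapping annotated gene, since neither the strand setting nor the treatment of overlaps is known here. The shared exon stretch was longest for Ramp2, with 1103 bases shared with Vps25, and for Nos3, with 1040 bases shared with the antisense gene Gm15587.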

How the data were processed

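RNA of whole livers from hepatocyte-specific AEG-1 knockout and control mice was made into TruSeq libraries and sequenced on an Illumina HiSeq2500, per the labels' protocols. The authors deposited raw counts of reads, 1 row per gene, and each gene's exon length. Per the submitters' processing notes, the tools were featureCounts 1.4.6-p4, Subread 1.4.6-p4, Trimmomatic 0.33 and FastQC and the build was GRCm38 (mm10). The strand setting, the annotation release and how multiply matching reads were handled were not given in the sources used here.

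Control columns 1 and 2 were identical, so 3 knockout libraries were compared with 2 distinct control libraries. Genes were kept by edgeR's filterByExpr (16441 of 46983), scaled by TMM and tested two-sided by the quasi-likelihood method of edgeR, with Benjamini-Hochberg adjustment over all kept genes and a threshold of 0.05. SEs came from the F statistic. The fit was tested on simulated data. Alternatives were other scalings, no filter, DESeq2, a replicate block, all 6 columns and leaving out each library. Versions were R 4.3.3, edgeR 4.0.16, DESeq2 1.42.0 and Python 3.11.15.

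The 35 genes and 18 comparison lists were chosen with earlier results of these data known. Besides the 35 and Mtdh, the 2 genes with the smallest p of a list could be named; other genes named were chosen after their values were seen.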

Additional observations from a re-analysis of the deposited data

How the results depend on the processing

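The direction of the endothelial values held in most settings. The number of the 35 genes that were lower in knockout livers was 29 with RLE size factors, library totals or no filter, 30 with DESeq2 or all 6 columns, 32 with the replicate block and 27 to 32 without single libraries. No endothelial gene was called in any of these fits, while the edgeR count at an unadjusted p under 0.05 was 3 lower and 0 higher. That count of lower genes was 8 on all 6 columns, 9 without the filter, 1 with the replicate block and 0 to 14 without single libraries, beside 5.10%, 1.86%, 2.23% and 1.51% to 2.84% of all genes (1.80% in the reported fit). The 11 genes with non-overlapping groups became 12 to 24 without single libraries, where the condition is easier to meet. The share of all genes rose as well, from 8.73% to between 14.0% and 25.6%, and the highest share went with a count of 14. Over all genes, DESeq2 called 6 higher and 13 lower genes, and the lower count was 3 without the filter, 0 with the replicate block and 1 to 6 without single libraries. The sinusoidal minus pan-endothelial median was 0.0257 with the replicate block and ran from -0.13 to 0.0872 without single libraries. Against estimates near 0, the sign turned for Gata4 (-0.14), Vwf (-0.12) and Wnt9b (-0.0882) with the replicate block, and for Nos3 by DESeq2 (-2.789e-05) and on all 6 columns (-0.003376). Without single libraries, values ran from -0.49 to 0.13 for Sox17, -0.60 to 0.0783 for Dnase1l3, -0.76 to 0.0153 for Wnt2, -0.37 to 0.56 for Vwf, -0.13 to 0.18 for Wnt9b, -0.14 to 0.13 for Gata4, -0.34 to 0.15 for Emcn, -0.28 to 0.12 for Cldn5, -0.27 to 0.0303 for Stab2, -0.29 to 0.0174 for Rspo3 and -0.0638 to 0.12 for Nos3. The replicate numbers are not said to pair mice. Deviations from the group means correlated across genes at 0.03 for the pair numbered 1 and 0.14 for the pair numbered 3. With 2 control libraries the crossed pairs mirror these values by construction, at -0.03 and -0.14, so the correlations do not decide on a pairing. Under the block Mtdh had an edgeR adjusted p of 0.0517. The cause of these changes was not tested. With 1 control library left, that library was assumed to vary like the other group. Summed levels and the last counts were added as results after the data were seen.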

Other observations

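Of 7 genes of lymphatic endothelium, Flt4 and Lyve1 of the 35 among them, 6 passed the filter, 5 were lower in knockout livers and 0 were called (median -0.53). Ccl21a, a chemokine of lymphatic vessels, had 30, 42 and 27 counts in the knockout libraries, against 93 and 44 in the control libraries, a log2 fold change of -1.10 (SE 0.35, edgeR unadjusted p = 0.0188). Mmrn1, a platelet and lymphatic protein, had 17, 10 and 7 counts in the knockout libraries, against 21 and 26 in the control libraries, likewise without overlap. Every knockout library lay below both controls for 3 of the 6 lymphatic genes (50%), beside 8.73% of all genes tested. Prox1, the lymphatic identity factor, is also a hepatocyte gene and had 0.00 (SE 0.20). Reln, a secreted matrix protein that stellate cells also make, had -0.18 (SE 0.20), and Pdpn had at most 8 counts in any library.

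Of 9 genes of larger vessels, Vwf and Plvap among them, 7 passed the filter, 4 were lower and 3 higher, and 0 were called (median -0.00). Sema3g, an arterial semaphorin, had 11, 4 and 11 counts in the knockout libraries, against 34 and 9 in the control libraries, and the groups overlapped.

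The remaining marker lists had 0 calls each. The medians were -0.08 for 9 hepatocyte markers, -0.07 for 5 cholangiocyte markers, -0.20 for 3 platelet markers, -0.46 for 2 T and NK cell markers, -0.09 for 8 B and plasma cell markers and -0.27 for 5 erythroid markers that passed the filter.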
